A study of Mus musculus with 12 samples.

Results

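The genes that write, copy and remove methyl groups on DNA were measured in mouse embryonic stem cells before and after Xist was switched on. They are Dnmt1, Uhrf1, Dnmt3a, Dnmt3l, Tet1, Tet2 and Tet3. They were taken by gene name from the count files, where all 7 are present among 22556 genes. No measured value entered this rule, but earlier results of these data were known when the genes were chosen.

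DNA methylation in mammals sits mainly on cytosines that are followed by guanine (CpG sites). One enzyme copies the marks to the new strand after replication with the help of a protein that reads hemimethylated sites, de novo enzymes and their co-factor set new marks, and TET enzymes oxidise methylcytosine as the first step of its removal. Embryonic stem cells are known for high expression of Tet1 and Tet2 and of the de novo co-factor, with little Tet3, and the de novo enzymes are best known for the marks they set during early development and in germ cells.

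The study profiled chromatin-associated RNA (ChrRNA-seq), which is rich in nascent transcripts, to ask how deletions within Xist change allelic silencing of the X chromosome. All 12 libraries come from iXist-ChrX cells, a female line with 1 genome from 129S and 1 from Cast, grown in ES medium on mitomycin-inactivated fibroblast feeders, which by the study's methods were removed by pre-plating before RNA was taken. In every line, a TetOn promoter, which doxycycline (Dox) activates and which is unrelated to the Tet genes, takes the place of the endogenous promoter of Xist on the 129S allele. By the study's methods the cells also express the activator protein rtTA from the TIGRE locus. WT has these changes alone and was sequenced in 1 library at 0 h (no Dox) and 1 library after 24 h of Dox. XistDelA, in which Xist also lacks the A-repeat, has 3 clones named C1, 2C2 and C11, each with 1 library at 0 h and 1 at 24 h. The deposit gives the deletion in C11 a different name from the one in C1 and 2C2, and the study describes both a precise and an earlier deletion of the A-repeat. Which of these C11 has is not stated, and the labels give the 3 clones as 1 genotype. XistDelm6A/T1_11C, called T1_11C from here on, in which Xist also lacks the region rich in m6A near its 5′ end, is 1 line with 2 replicates at 0 h and 2 at 24 h.

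These groups set limits on what can be compared. Each line is a clone, so a deletion and the other properties of its clone cannot be told apart. WT has no replicates, so its values are given without a test of their own. The study's methods speak of 2 biological replicates, but the labels do not say which libraries these are or whether those of 1 line came from separate cultures. The p-values here measure spread between libraries. No library comes from Dox-treated cells without inducible Xist, so effects of Dox and of Xist cannot be told apart. In bulk samples, fewer cells that express a gene and less RNA per cell cannot be told apart either.

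Library depth, as total counts on genes, had a median of 26552191 and ran from 18893447 to 36007145. It was 27022431 in WT at 0 h and 27795782 at 24 h. At 0 h the XistDelA clones C1, 2C2 and C11 had 25742430, 22949578 and 26081951 counts, and at 24 h they had 27489603, 27300014 and 27469878. For T1_11C replicates 1 and 2 the totals were 21551628 and 18893447 at 0 h and 36007145 and 21079263 at 24 h. Levels are given as RPM, the number of counts on a gene for each 1000000 counts on all genes of the library, and gene spans include introns. The authors could place 44.6% to 47.1% of each library's counts on 1 of the parental genomes.

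Xist itself served as the check of the Dox label. Its level was 297 RPM without Dox and 5514 RPM with Dox in WT. In clones C1, 2C2 and C11 Xist stood at 124, 126 and 158 RPM without Dox and at 1543, 1267 and 1600.04 RPM with Dox. Replicates 1 and 2 of T1_11C had 100.1 and 85.6 RPM without Dox and 3140 and 4576 RPM with Dox. Every library with Dox lay above every library without it, and between 98.2% and 99.9% of the allelic counts of Xist were on 129S.

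The labelled cell type was checked with 12 genes of embryonic stem cells. In every library 11 of the 12 lay above 1 RPM, and their summed level ran from 1688 to 2586 RPM, led by Zfp42 or Esrrb. Sox2 was at 0 in every library, where it lies entirely within Sox2ot on the same strand and read pairs on both genes were not counted. A list of 12 fibroblast genes, which feeders left after pre-plating could supply, summed to between 30.0 and 67.1 RPM with 3 to 7 genes above 1 RPM, led by Fbn1. A list of 11 genes of primed or early lineage cells summed to between 36.8 and 115 RPM, led by Otx2.

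The 4 T1_11C libraries stood apart from the other 8. They follow their own naming scheme in the deposit, and the line and its set of libraries cannot be told apart. Rmrp, which was singled out after its values were seen, lay at 4056 to 7638 RPM in T1_11C and at 498 to 918 RPM in the other libraries. The fibroblast list summed to 30.0 to 43.9 RPM in T1_11C and to 50.1 to 67.1 RPM in the others, and the primed list to 60.6 to 115 RPM in T1_11C and to 36.8 to 54.8 RPM in the others. Neither of these sums overlapped between T1_11C and the other libraries. Among genes of embryonic stem cells, Klf4, Dppa5a and Utf1 were singled out after their values were seen. Klf4 lay at 30.7 to 43.5 RPM in T1_11C and at 66.3 to 98.6 RPM in the others. Dppa5a lay at 22.7 to 65.0 RPM against 75.0 to 119 RPM, and Utf1 at 7.83 to 15.1 RPM against 3.71 to 5.94 RPM. Other genes of that list overlapped, namely Pou5f1 (31.2 to 78.0 RPM against 49.4 to 73.0 RPM), Nanog, Esrrb, Zfp42, Tfcp2l1, Tdgf1 and Fgf4. How many of all genes lack overlap in this way was not counted. The part of these sums and genes in the results below was not tested. Where leaving T1_11C out changed a call or moved a called value by over 1.5 times, the value without it is given as well.

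The 7 genes lie on 6 autosomes of mm10 and were counted over spans that include introns. GENCODE M21 takes Tet1 on to 62908996 and Tet3 to 83459084, past the counted ends given below. For maintenance, Dnmt1 (ENSMUSG00000004099.16 in GENCODE M21) was counted over chr9:20907205-20959888 on the minus strand and Uhrf1 (ENSMUSG00000001228.14) over chr17:56303336-56323486 on the plus strand. Of the de novo genes, Dnmt3a (ENSMUSG00000020661.15) was counted over chr12:3806979-3914443 and Dnmt3l (ENSMUSG00000000730.13) over chr10:78042286-78063622, both on the plus strand. All 3 oxidising enzymes lie on minus strands, Tet1 (ENSMUSG00000047146.17) at chr10:62804569-62880014, Tet2 (ENSMUSG00000040943.12) at chr3:133463676-133544390 and Tet3 (ENSMUSG00000034832.15) at chr6:83362373-83441678. Annotated exons cover between 13.2% and 21.1% of these spans, so most of each counted span is intron. The other genes in the files that overlap a member, Dnmt3aos over 2953 bases of Dnmt3a and Aire over 1325 bases of Dnmt3l, lie on the opposite strand, and counting was by strand.

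Promoters are shown for the 4 genes called lower with Dox in the XistDelA clones (Tet1, Tet2, Uhrf1 and Dnmt3l) and for Dnmt3a, the member with the largest parental skew. The sequences are from RefSeq on GRCm38.p6, run from 250 bases before to 50 bases after the start of transcription, and are printed 5′ to 3′ on the strand of the gene, with each CpG, the site that these proteins act on, in capitals. They are chr10:62887275-62887574 on the minus strand for Tet1, chr3:133544341-133544640 on the minus strand for Tet2, chr17:56303087-56303386 on the plus strand for Uhrf1, chr10:78042037-78042336 on the plus strand for Dnmt3l and chr12:3806730-3807029 on the plus strand for Dnmt3a.
Tet1: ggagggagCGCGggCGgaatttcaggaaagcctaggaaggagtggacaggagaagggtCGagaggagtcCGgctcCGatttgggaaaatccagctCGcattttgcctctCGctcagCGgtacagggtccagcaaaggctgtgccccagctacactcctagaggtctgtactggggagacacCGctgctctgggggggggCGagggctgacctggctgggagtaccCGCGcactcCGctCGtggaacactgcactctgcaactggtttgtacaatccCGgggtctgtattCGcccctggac
Tet2: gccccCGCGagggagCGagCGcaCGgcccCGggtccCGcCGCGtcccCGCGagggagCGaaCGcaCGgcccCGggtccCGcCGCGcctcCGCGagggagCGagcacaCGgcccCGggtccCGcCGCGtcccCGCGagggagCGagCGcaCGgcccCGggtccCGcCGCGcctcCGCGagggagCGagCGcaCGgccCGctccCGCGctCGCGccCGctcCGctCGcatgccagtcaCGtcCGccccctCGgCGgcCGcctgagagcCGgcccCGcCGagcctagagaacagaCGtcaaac
Uhrf1: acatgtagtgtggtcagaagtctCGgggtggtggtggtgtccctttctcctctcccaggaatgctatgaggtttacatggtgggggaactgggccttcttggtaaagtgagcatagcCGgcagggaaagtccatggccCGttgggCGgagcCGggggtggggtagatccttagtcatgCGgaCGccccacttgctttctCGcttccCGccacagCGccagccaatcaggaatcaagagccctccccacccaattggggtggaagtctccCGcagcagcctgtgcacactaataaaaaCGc
Dnmt3l: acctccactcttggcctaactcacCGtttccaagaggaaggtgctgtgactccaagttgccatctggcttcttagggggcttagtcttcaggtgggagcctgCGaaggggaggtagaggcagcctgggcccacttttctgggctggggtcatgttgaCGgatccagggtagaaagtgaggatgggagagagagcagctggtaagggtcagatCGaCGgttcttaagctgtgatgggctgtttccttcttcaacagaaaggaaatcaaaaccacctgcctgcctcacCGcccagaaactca
Dnmt3a: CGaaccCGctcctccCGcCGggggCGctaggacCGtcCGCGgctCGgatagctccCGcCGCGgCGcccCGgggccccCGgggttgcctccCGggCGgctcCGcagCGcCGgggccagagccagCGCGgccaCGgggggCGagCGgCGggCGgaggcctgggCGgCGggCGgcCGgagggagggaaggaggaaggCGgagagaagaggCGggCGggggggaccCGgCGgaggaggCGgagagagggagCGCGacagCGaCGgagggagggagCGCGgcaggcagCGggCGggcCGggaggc
All 7 genes matched an entry, and where a gene had several, the entry nearest to the counted start was used. That start lay 0 or 1 base from the counted start except for Tet1, where the RefSeq start lies 7310 bases away and outside the counted span. The dinucleotide CG reads the same on both strands and was counted once. The median over 32851 promoters of 300 bases was 7 CpG. Tet2 held 57 CpG, and 0.152% of all promoters held as many or more. Dnmt3a held 46, which 1.65% of promoters reached. Tet3 held 22 (reached by 23.1%), Tet1 17 (31.4%), Uhrf1 12 (39.6%), Dnmt3l 6 (56.4%) and Dnmt1 2 (85.9%). The 4 promoters of the genes called lower in XistDelA thus ran from 6 to 57 CpG, below and above the median of all promoters, and methylation itself was not measured here.

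Compared per kb of counted span and averaged over the 12 libraries, Tet1 had the highest level with 27.1 ± 8.90 RPM per kb (SD, n = 12), which is the 99.2th percentile of 18059 genes with counts. It was followed by Uhrf1 with 6.01 ± 1.29 (94.7th percentile), Tet2 with 5.24 ± 1.16 (93.6th) and Dnmt1 with 3.50 ± 0.341 RPM per kb (89.1th). Dnmt3l had 3.34 ± 0.802 (88.3th), Dnmt3a 0.504 ± 0.109 (51.4th) and Tet3 0.372 ± 0.0565 RPM per kb (46.9th). These SDs take in differences between lines and Dox states, since the 12 libraries come from 5 lines and are not replicates of 1 condition. The ranges of Tet1 and Uhrf1 did not overlap, and neither did those of Dnmt3l and Dnmt3a. All other neighbours in this order overlapped in range. Uhrf1 lay above Tet2 in 10 of 12 libraries, Tet2 above Dnmt1 in 11, Dnmt1 above Dnmt3l in 7 and Dnmt3a above Tet3 in 12. The depth behind these levels ran from 407 counts of Tet3, or 19.3 RPM with a Wilson 95% interval of 17.5 to 21.3 RPM, to 74802 counts of Tet1, or 2868 RPM with an interval of 2848 to 2889 RPM. These intervals cover counting error only, since read pairs carry no molecular identifiers.

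**Figure D1:**
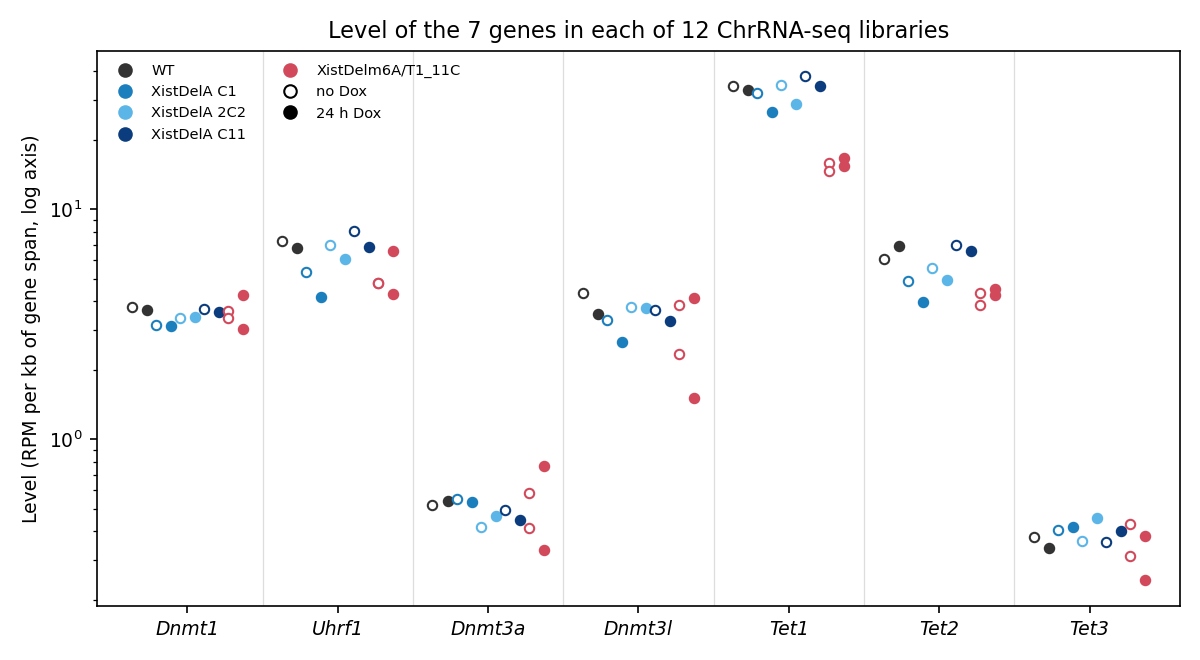
Level of the 7 genes in RPM per kb of counted span (log axis) in each of the 12 libraries, coloured by line, open without Dox and filled with 24 h of Dox. The 4 T1_11C points of Tet1, from 14.6 to 16.8 RPM per kb, lie below the 8 others.

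Dnmt1, the enzyme that copies methylation to the new strand, was the steadiest member. Its level was 199 RPM without Dox and 192 RPM with Dox in WT. In clones C1, 2C2 and C11 Dnmt1 stood at 166, 177 and 194 RPM without Dox and at 164, 179 and 188 RPM with Dox. In the T1_11C replicates it stood at 190.4 and 178 RPM without Dox and at 224 and 159 RPM with Dox. The highest and the lowest of the 12 values were the 2 T1_11C libraries with Dox, and the states overlapped in the clones and in T1_11C. The highest library of Dnmt1 was 1.41 times the lowest.

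Uhrf1, which binds hemimethylated CpG sites and brings Dnmt1 to them, varied more. In WT it stood at 147 RPM at 0 h (Wilson 95% interval 143 to 152) and at 136 RPM at 24 h of Dox (132 to 141). The level of Uhrf1 in clones C1, 2C2 and C11 was 108, 141 and 163 RPM without Dox and 83.4, 123 and 139 RPM with Dox. Replicates 1 and 2 of T1_11C had 96.6 and 96.7 RPM without Dox and 133 and 86.6 RPM with Dox. Clone C1 was the lowest clone in both states, each clone was lower with Dox, and the states overlapped because the clones differed by more than Dox moved them.

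Dnmt3a, a de novo methyltransferase, stood at 55.8 RPM without Dox and 58.1 RPM with Dox in WT. Clones C1, 2C2 and C11 had Dnmt3a at 58.9, 44.6 and 52.9 RPM without Dox and 57.1, 49.6 and 48.0 RPM with Dox. In the T1_11C replicates it was at 62.8 and 44.1 RPM without Dox and at 82.4 and 35.4 RPM with Dox. The 2 T1_11C libraries with Dox again held the extremes, and the states overlapped.

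Dnmt3l, which has no catalytic activity and stimulates the de novo enzymes, stood at 92.7 RPM without Dox and 74.8 RPM with Dox in WT. In clones C1, 2C2 and C11 the level of Dnmt3l was 70.4, 80.3 and 77.7 RPM without Dox and 56.6, 79.5 and 70.1 RPM with Dox. Replicates 1 and 2 of T1_11C had 81.7 and 50.4 RPM without Dox and 87.8 and 32.2 RPM with Dox. Replicate 2 of T1_11C held the lowest value in each state, and the states overlapped in the clones. From lowest to highest library the level of Dnmt3l spanned a factor of 2.88, the widest span of the 7.

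Tet1, an enzyme that oxidises methylcytosine, stood in WT at 2585 RPM at 0 h (Wilson 95% interval 2566 to 2604) and at 2501 RPM at 24 h of Dox (2483 to 2519.95). The level of Tet1 in clones C1, 2C2 and C11 was 2426, 2628 and 2868 RPM without Dox and 2006, 2164 and 2599.6 RPM with Dox. In the T1_11C replicates it was 1198 and 1104 RPM without Dox and 1268 and 1170.2 RPM with Dox. All 4 T1_11C libraries lay below all 8 others, each clone was lower with Dox, and C11 was the highest clone in both states, so that the states of the clones overlapped.

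Tet2, a second oxidising enzyme, stood at 493 RPM without Dox and 559.9 RPM with Dox in WT. Clones C1, 2C2 and C11 had Tet2 at 395, 449 and 563 RPM without Dox and 319.5, 397 and 532 RPM with Dox. Replicates 1 and 2 of T1_11C had 349.8 and 310.4 RPM without Dox and 341 and 362 RPM with Dox. The clones kept the order C1, 2C2, C11 in both states and each was lower with Dox, the states overlapped, and T1_11C overlapped with clone C1.

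Tet3, the third oxidising enzyme, was the least abundant member and stood at 29.8 RPM without Dox and 26.8 RPM with Dox in WT. In clones C1, 2C2 and C11 the level of Tet3 was 31.9, 28.6 and 28.3 RPM without Dox and 33.0, 36.0 and 31.7 RPM with Dox. In the T1_11C replicates it was 33.8 and 24.8 RPM without Dox and 30.2 and 19.3 RPM with Dox. Each clone was higher with Dox and each T1_11C replicate, paired by number, was lower with Dox, and the states overlapped.

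Whether levels moved with Dox was first tested over all 5 lines with edgeR, with the line as a block and p adjusted over 15826 genes, where a gene is called when the adjusted p is below 0.05. None of the 7 members was called (0 of 7), beside 147 genes or 0.929% of all genes tested. At an unadjusted p below 0.05 there were 0 members and 2336 genes, and DESeq2 called 0 members and 621 genes. The estimates of the members ran from a log2 change of -0.21 for Dnmt3l to 0.02 for Dnmt3a, with adjusted p from 0.627 to 0.965. The median of the 7 was -0.05 and that of all genes 0.01. Single lines moved these counts. Without T1_11C 4037 genes were called, or 26.4% of those tested, with 3 members among them. These were Uhrf1 with a log2 change of -0.26 (adjusted p 0.00229), Tet1 with -0.22 (0.00504) and Dnmt3l with -0.23 (0.00942), and over all alternatives tried their adjusted p reached 0.996. Without WT 4 genes were called, without C1 7, without 2C2 3 and without C11 23, with 0 members in each case. The small estimates also changed direction, since Tet2 went from -0.05 to 0.01 without C1, and without T1_11C Dnmt3a went from 0.02 to -0.03 and Tet3 from -0.04 to 0.07, none of them called.

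How T1_11C enters the block mattered as well. Its replicates share only a number, which is not said to pair them, and they were left unpaired. With a replicate block that pairs them by number, edgeR called 2588 genes over 5 lines, or 16.4%, and 1 member, Dnmt3l with a log2 change of -0.23 (adjusted p 0.0296). Over all alternatives the adjusted p of Dnmt3l ran from 0.00942 to 0.996.

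**Figure D2:**
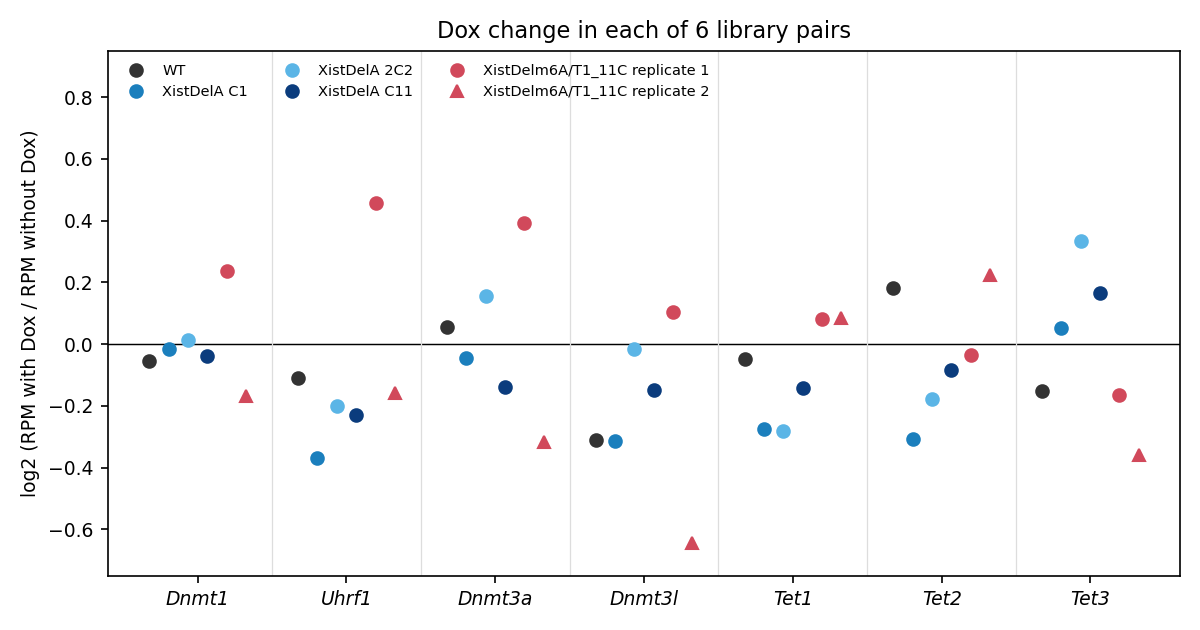
Log2 ratio of RPM with Dox to RPM without Dox in 6 pairs of libraries for each gene, with T1_11C paired by replicate number. Uhrf1, Tet1, Tet2 and Dnmt3l lie below 0 in all 3 XistDelA clones, and the T1_11C points of Dnmt3l run from -0.65 to 0.10.

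Within XistDelA, with the clone as a block, the question was whether levels moved in cells whose induced Xist lacks the A-repeat. Of the 7 members 4 were called, beside 29.0% of 15130 genes, and all 4 were lower with Dox, beside 14.5% of all genes called lower. Uhrf1 fell by 0.29 on the log2 scale (SE 0.0506, adjusted p 7.58e-05), from a mean of 137 ± 27.7 to 115 ± 28.5 RPM (SD, 3 clones). Tet1 fell by 0.26 (SE 0.0447, adjusted p 6.97e-05), from 2641 ± 221 to 2256 ± 308 RPM. Tet2 fell by 0.22 (SE 0.0475, adjusted p 0.00103), from 469 ± 85.8 to 416 ± 107 RPM. Dnmt3l fell by 0.18 (SE 0.0577, adjusted p 0.0166), from 76.1 ± 5.16 to 68.7 ± 11.5 RPM. Each of the 4 was lower in 3 of 3 clones, and its direction was the same under every scaling tried. The smallest fall was that of Dnmt3l in 2C2, with a log2 change of -0.01.

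The other 3 members did not pass in XistDelA. Tet3 was higher in 3 of 3 clones with a log2 change of 0.16 (adjusted p 0.0934), Dnmt1 had -0.04 (0.561) and Dnmt3a had -0.04 (0.689), which changed direction to 0.01 (0.931) without C11. The median change of the 7 was -0.18, and that of all genes 0.01. Well-counted genes were called more often than others. Among the 3280 genes with a mean count of at least that of Dnmt3l in these libraries, 50.9% were called and 29.5% were called lower, and among the 5336 with at least that of Tet3 these shares were 47.2% and 25.7%. Only 8 genes, Tet1 included, had at least the mean count of Tet1, and 8 were called, 6 of them lower.

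The calls in XistDelA rest on comparing libraries within a clone. Without the clone block edgeR called 3 of 14866 genes, or 0.0202%, and 0 members, while 2162 genes had an unadjusted p below 0.05. The estimates stayed close, with log2 changes of -0.28 for Uhrf1, -0.25 for Tet1, -0.20 for Tet2 and -0.18 for Dnmt3l, and adjusted p of 0.594, 0.392, 0.702 and 0.586. Leaving out clone C1 lowered the count to 2152 genes and left Dnmt3l (log2 change -0.12, adjusted p 0.363) and Tet2 (-0.17, 0.129) uncalled. Leaving out 2C2 lowered it to 2786 with the 4 members still called. Without C11, whose deletion has the other name, 4996 genes were called and the same 4 members, with log2 changes of -0.32 for Uhrf1, -0.32 for Tet1, -0.28 for Tet2 and -0.20 for Dnmt3l. Lastly, DESeq2 with the block called 2643 genes with the same 4 members. Over all alternatives the adjusted p ran from 1.60e-07 to 0.594 for Uhrf1, from 2.79e-10 to 0.392 for Tet1, from 8.05e-06 to 0.702 for Tet2 and from 0.00314 to 0.586 for Dnmt3l.

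Genes that mark the state of the cells were looked at in XistDelA too. Of the 12 genes of embryonic stem cells 11 were tested there by edgeR and 6 were called, 5 lower and 1 higher, with a median log2 change of -0.17. Beside these stand 29.0% called and 14.5% called lower among all genes, and 37.7% and 19.1% among the 10387 genes with at least the lowest mean count of the 11. Among the 2936 genes with at least the median count of the 11 these shares were 51.4% and 30.1%, and 4 of the 6 markers there were called. Those called lower were Tdgf1 (-0.44, adjusted p 7.12e-07), Tfcp2l1 (-0.31, 1.08e-05), Klf4 (-0.33, 5.38e-05), Dppa5a (-0.29, 8.36e-04) and Pou5f1 (-0.17, 0.0452). The one called higher was Zfp42 (0.41, adjusted p 1.71e-07). All but Pou5f1 moved the same way in 3 of 3 clones. Of the genes of primed or early lineage cells 1 of 9 tested was called, T, which was higher in 3 of 3 clones (0.53, adjusted p 0.0379). Pou3f1 (-0.64, adjusted p 0.0658) and Otx2 (-0.16, 0.132) of that list were lower in 3 of 3 clones and did not pass. Of the fibroblast genes 1 of 10 was called, Acta2, which was higher in 3 of 3 clones (1.42, adjusted p 0.0215) on 2 to 16 counts a library. Of the others Col1a1 (0.28, adjusted p 0.308) was higher and Dcn (-0.38, 0.462) and Thy1 (-0.40, 0.164) were lower in 3 of 3 clones, and none of these passed. These lists were looked at with Dox after the results of the members were seen. Changes in Uhrf1, Tet1, Tet2 and Dnmt3l and changes in cell state cannot be told apart here, and the part of cell state was not tested.

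In T1_11C, whose induced Xist keeps the A-repeat, edgeR called 0 of 7 members and 0 of 15140 genes (0%) between 2 libraries with Dox and 2 without. At an unadjusted p below 0.05 there were 0 members and 173 genes, and DESeq2 called 0 members and 3 genes. Leaving out a library gave 4 genes without replicate 1 at 0 h, 13 without replicate 1 with Dox, 4 without replicate 2 at 0 h and 14 without replicate 2 with Dox, and no member in any of these. The estimates were wide, and Xist itself, with a log2 change of 5.40, had an adjusted p of 0.0546 here. For Uhrf1 the log2 change was 0.16 with a 95% interval of -0.37 to 0.68, and for Dnmt3l it was -0.18 with an interval of -1.19 to 0.83. Tet1 had 0.08, Tet2 0.10, Tet3 -0.26, Dnmt1 0.04 and Dnmt3a 0.10. The intervals for Uhrf1, Tet1, Tet2 and Dnmt3l include the changes seen in XistDelA, and a change of that size was not detectable with these libraries.

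Single libraries of T1_11C turned the direction of 5 members, none of them called. Dnmt3l went to 0.15 without replicate 1 at 0 h and to 0.32 without replicate 2 with Dox, and Tet2 to -0.05 without the latter. Without replicate 1 with Dox, Dnmt1 went to -0.10, Dnmt3a to -0.47 and Uhrf1 to -0.05, and Dnmt3a was at -0.06 without replicate 2 at 0 h. With a replicate block that pairs the libraries by number, edgeR called 237 of 15140 genes, or 1.57%, and 0 members.

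Whether the Dox effect differed between T1_11C and XistDelA was tested by an interaction term. It called 0 of 7 members and 0 of 15745 genes (0%) in edgeR, with 352 genes at an unadjusted p below 0.05, and DESeq2 called 4 genes and 0 members. The only member below 0.05 before adjustment was Uhrf1, where the log2 effect was 0.46 higher in T1_11C (p 0.0391, adjusted p 1). With T1_11C paired by number in a replicate block, 117 genes or 0.743% were called and 0 members, and the adjusted p of Uhrf1 was 0.159, within a range of 0.159 to 1 over all alternatives. The 4 calls in XistDelA and their absence in T1_11C are thus not shown to differ.

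**Figure D3:**
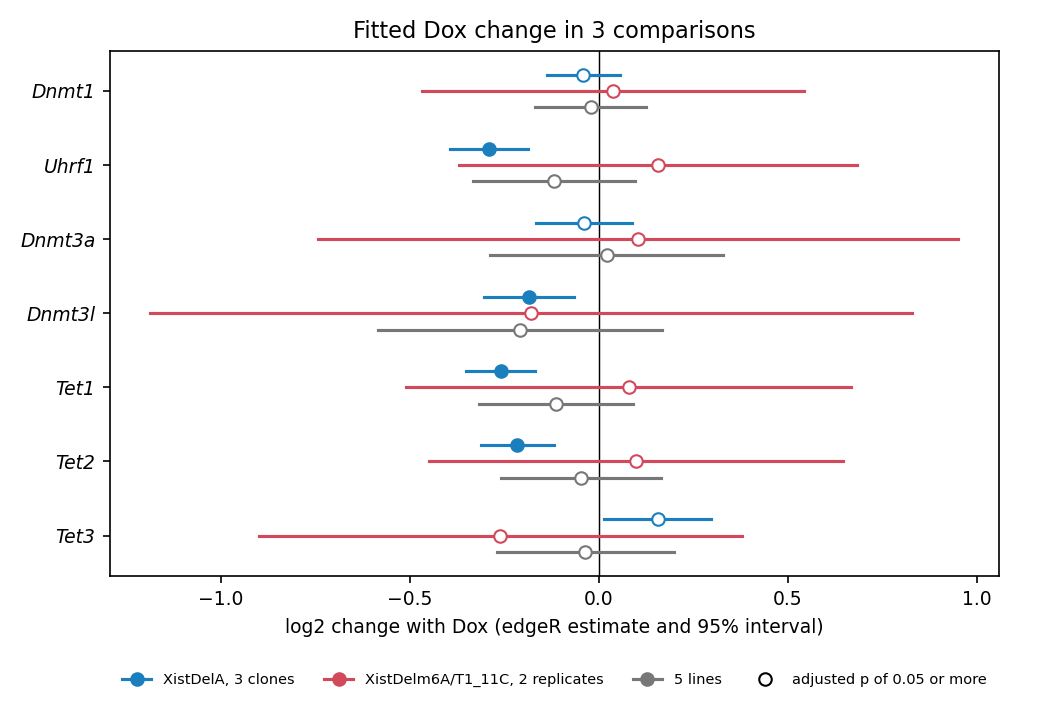
Log2 change with Dox estimated by edgeR, with 95% intervals, in the 3 XistDelA clones, in T1_11C and over all 5 lines, filled where the adjusted p is below 0.05. The 4 filled points, between -0.29 and -0.18, all belong to XistDelA.

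Levels were next compared among the 5 lines with an F test that adjusts for Dox. Of the 7 members 3 were called, beside 35.2% of 15826 genes. For Tet1 the lines spanned 1.30 on the log2 scale (adjusted p 2.29e-04), with C11 at 0.39, WT at 0.25, 2C2 at 0.20, C1 at 0.07 and T1_11C at -0.91 relative to the mean of the lines. For Tet2 they spanned 0.77 (adjusted p 0.00596), with C11 at 0.37, WT at 0.29, 2C2 at -0.00, C1 at -0.26 and T1_11C at -0.40. For Uhrf1 they spanned 0.68 (adjusted p 0.0116), with C11 at 0.33, WT at 0.21, 2C2 at 0.13, T1_11C at -0.32 and C1 at -0.35. In all 3 genes C11 and WT were the highest lines, and T1_11C or C1 the lowest. The others had spans of 0.50 for Dnmt3l (adjusted p 0.378), 0.37 for Tet3 (0.258), 0.29 for Dnmt3a (0.837) and 0.23 for Dnmt1 (0.399). The median span of the 7 was 0.50, below the 0.64 of all genes tested. Among the 5588 genes with at least the mean count of Tet3, 43.0% were called.

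T1_11C entered these results with replicates that differed. Without it 4946 genes were called, or 32.4% of those tested, and 6 members. Dnmt3l (span 0.38, adjusted p 0.00888), Dnmt1 (0.23, 0.0207) and Dnmt3a (0.29, 0.0323) then joined the 3 above. Those 3 stayed called, but the span of Tet1 shrank from 1.30 to 0.32 (adjusted p 0.0146), while that of Tet2 was 0.63 (7.90e-04) and that of Uhrf1 0.68 (8.60e-05). Over all alternatives the adjusted p ran from 1.50e-24 to 0.0146 for Tet1, from 5.68e-06 to 0.0315 for Tet2 and from 8.46e-05 to 0.0414 for Uhrf1. For the 3 that joined it ran from 0.00888 to 0.460 for Dnmt3l, from 0.0207 to 0.688 for Dnmt1 and from 0.0323 to 0.911 for Dnmt3a.

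The distance of Tet1 in T1_11C was the largest among the members. It lay 1.14 on the log2 scale below the mean of the other 4 lines, and 3.02% of 15826 genes lay lower by the same measure. The corresponding log2 difference was -0.50 for Tet2, -0.40 for Uhrf1, -0.36 for Dnmt3l, -0.28 for Tet3, -0.04 for Dnmt1 and -0.02 for Dnmt3a. Within 10 Mb of Tet1 there were 79 genes with a mean count of at least 50. In T1_11C their median log2 level relative to the lines was -0.05, with quartiles of -0.36 and 0.38, and Tet1, at -0.84 by this measure, lay below all 79. The median share of 129S among these neighbours was 54.3% in T1_11C, against 54.1% to 55.2% in the other lines.

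**Figure D4:**
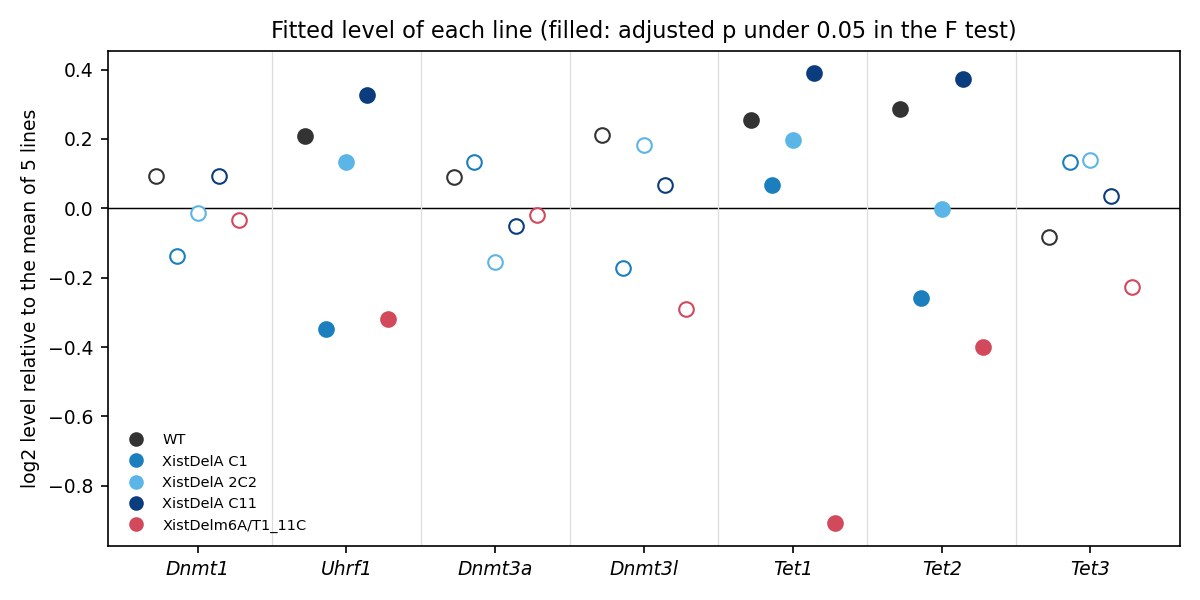
Fitted log2 level of each gene in the 5 lines relative to their mean, filled where the F test among lines has an adjusted p below 0.05. Tet1 in T1_11C lies at -0.91, below every other point.

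Since each genome can be read apart, the share of allelic counts on 129S was taken for every gene. Over 11604 autosomal genes the median log2 ratio of 129S to Cast was 0.12. The median share in a library ran from 51.5% to 52.8%. It was taken over the 12528 to 13860 autosomal genes with at least 10 allelic counts in that library. A ratio was tested against 1 with the allelic counts in edgeR, where 75.7% of 12042 genes were called, 47.4% higher on 129S and 28.3% lower, so a call by itself says little. Of the 7 members 6 were called, 5 higher on 129S and 1 lower.

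Dnmt3a was the member that was lower on 129S. Its share was 40.4% without Dox (Wilson 95% interval 36.5% to 44.5%) and 45.1% with Dox (41.2% to 49.1%) in WT. In clones C1, 2C2 and C11 the share of Dnmt3a on 129S was 42.5%, 41.2% and 42.2% without Dox and 40.7%, 43.4% and 36.5% with Dox. Replicates 1 and 2 of T1_11C had 42.4% and 45.7% without Dox and 39.96% and 44.9% with Dox. All 12 libraries lay below 50%, and the intervals of the 2 libraries of T1_11C replicate 2 reached to 51.6% and 51.0%. The log2 ratio of Dnmt3a was -0.48 (SE 0.0460, adjusted p 1.91e-08), against the autosomal median of 0.12, and it was not called for a difference among lines (adjusted p 0.826). Genes within 10 Mb of Dnmt3a had median shares of 51.4% to 53.3% in the 5 lines.

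The 5 members that were higher on 129S lay closer to the autosomal median. The log2 ratio was 0.28 for Uhrf1 (SE 0.0270, adjusted p 2.66e-08, shares of 53.2% to 58.1%) and 0.25 for Tet1 (SE 0.0153, adjusted p 3.80e-11, shares of 51.7% to 56.7%). It was 0.22 for Tet3 (SE 0.0508, adjusted p 6.11e-04, shares of 50.5% to 61.6%) and 0.10 for Dnmt1 (SE 0.0220, adjusted p 5.20e-04, shares of 48.5% to 53.6%). Uhrf1, Tet1 and Tet3 lay above 50% in 12 of 12 libraries and Dnmt1 in 11. For Dnmt3l the ratio was 0.07 (adjusted p 0.0446), with shares above 50% in 6 libraries and below in 5, and the call was lost without WT (adjusted p 0.263), without C1 (0.193), without 2C2 (0.170) and without C11 (0.172). Without T1_11C it rose to 0.13 (adjusted p 0.00214). Tet2 was not called at -0.02 (adjusted p 0.359, shares of 47.2% to 53.4%), but was called without T1_11C at -0.05 (adjusted p 0.00567), and without C1 it turned to 0.0037 (0.878). Over all alternatives the adjusted p ran from 0.00214 to 0.263 for Dnmt3l and from 0.00567 to 0.878 for Tet2.

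**Figure D5:**
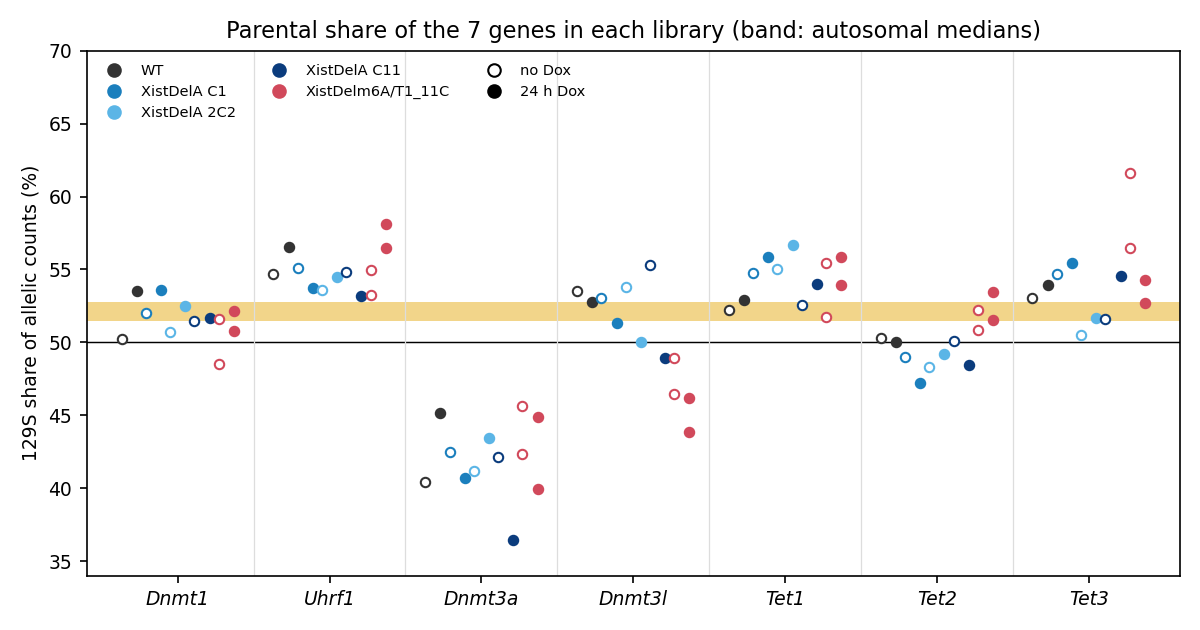
Share of allelic counts on 129S for each gene in the 12 libraries, open without Dox and filled with 24 h of Dox, with the range of the library medians over autosomal genes as a band. Dnmt3a lies between 36.5% and 45.7%, below the band in every library.

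The parental ratio differed among lines for 2 of 7 members, beside 15.8% of genes. For Dnmt3l the lines spanned 0.36 on the log2 scale (adjusted p 0.0335), with WT at 0.18, C1 at 0.12, 2C2 at 0.11, C11 at 0.12 and T1_11C at -0.18. For Tet2 they spanned 0.23 (adjusted p 0.0226), with T1_11C at 0.12, WT at 0.01, C11 at -0.04, 2C2 at -0.07 and C1 at -0.11. In both genes T1_11C was the line farthest from the others. Without it the span was 0.07 for Dnmt3l (adjusted p 0.972) and 0.12 for Tet2 (0.386), and Tet2 was also lost without C1 (0.0604). Tet1, with an adjusted p of 0.0523 over 5 lines, was called without T1_11C (span 0.19, adjusted p 1.52e-05), with log2 ratios of 0.15 in WT, 0.31 in C1, 0.34 in 2C2 and 0.19 in C11. Over all alternatives the adjusted p ran from 0.0287 to 0.972 for Dnmt3l, from 0.0200 to 0.386 for Tet2 and from 1.52e-05 to 0.233 for Tet1.

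With Dox the parental ratio changed in 0 of 7 members by edgeR, beside 26 of 12042 genes or 0.216%. DESeq2 was not run on the allelic counts. At an unadjusted p below 0.05 there were 978 genes and 3 members. Dnmt3l had a share on 129S of 53.6% in WT at 0 h (Wilson 95% interval 50.8% to 56.3%) and 52.8% at 24 h of Dox (49.7% to 55.8%). The share of Dnmt3l in clones C1, 2C2 and C11 was 53.0%, 53.8% and 55.3% at 0 h, against 51.4%, 50.0% and 48.9% at 24 h of Dox. In the T1_11C replicates it was 48.9% and 46.5% without Dox and 46.2% and 43.9% with Dox. With T1_11C paired by number, the share was lower with Dox in 6 of 6 pairs. The changes ran from -0.779 percentage points in WT to -6.45 in C11, and the log2 ratio differed by -0.17 (p 0.0118, adjusted p 0.377). Tet1 was higher on 129S with Dox in 6 of 6 of these pairs, with a log2 difference of 0.07 (p 0.0255, adjusted p 0.498), and Dnmt1 in 5 of 6 with 0.09 (p 0.0489, adjusted p 0.614). The count for Tet1 rests on the pairing, since T1_11C replicate 2 without Dox (55.4%) lay above replicate 1 with Dox (53.9%). The count of genes called was 10 without WT, 84 without C1, 86 without 2C2, 6 without C11 and 54 without T1_11C, with 0 members in each. With T1_11C paired by number in a replicate block, 174 genes or 1.44% were called and 1 member, Tet1 with 0.07 (adjusted p 0.0384), where the adjusted p of Tet1 ran from 0.0384 to 0.779 over all alternatives.

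The pathway around the 7 genes was followed with a list of 52 others. It was made up of 11 genes listed as co-factors of methylation, 13 of removal and repair, 9 listed as readers of methylated DNA, 14 of targeting and regulation and 5 of the methyl donor. These group names are broad. The readers include Mbd3, Mbd5 and Mbd6, which are not selective binders of methylated CpG. The co-factors include Trdmt1, which methylates tRNA. With Dox in XistDelA 24 of the 52 were called, 10 higher and 14 lower, or 46.2% beside 29.0% of all genes. Of the 14267 genes with at least the lowest mean count in the list 30.5% were called, and of the 4462 genes with at least the median count of the list 48.9%, where 16 of 26 genes of the list were called. With DESeq2 18 were called, or 34.6% beside 17.5% of all genes, and without the clone block 0 beside 0.0202%. Without C1 the list gave 7, or 13.5%, close to the 14.5% of all genes. It gave 17 (32.7% beside 18.6%) without 2C2 and 21 (40.4% beside 33.5%) without C11. The median change of the list was 0.01, the same as that of all genes. By group there were 2 higher and 3 lower among the co-factors, 2 and 3 among removal and repair, 4 and 1 among the readers, 2 and 4 in targeting and regulation and 0 and 3 for the methyl donor. Those called higher include Trdmt1 among the co-factors (0.25, adjusted p 0.0356) and Mbd5 among the readers (0.18, 0.00309). The genes with the smallest p were named. Ogt, which binds TET proteins and adds a sugar to proteins, stood at 594, 622 and 669.9 RPM in clones C1, 2C2 and C11 without Dox and at 728, 765 and 816 RPM with Dox. The states did not overlap, and the log2 change was 0.27 (adjusted p 3.72e-05). Ehmt1, a histone methyltransferase, had 0.21 (6.77e-04), and the DNA glycosylase Neil3 had 0.25 (0.00141). Hells, a remodeller needed for methylation of repeats, stood at 718, 821 and 813 RPM without Dox and at 599.6, 695 and 704 RPM with Dox. The states did not overlap, and Hells fell by 0.26 (adjusted p 4.41e-05). Setd2, which sets a histone mark read by de novo enzymes, fell by 0.24 (2.49e-04), and the glycosylase Ung fell by 0.37 (2.58e-04). Each of these 6 moved the same way in 3 of 3 clones. Without C1 the calls of Ehmt1 (0.20, adjusted p 0.0596) and Neil3 (0.23, 0.0586) were lost, and without the clone block those of all 6 (adjusted p from 0.216 to 0.501). Over all alternatives the adjusted p ran from 3.23e-05 to 0.227 for Ehmt1 and from 4.98e-04 to 0.501 for Neil3.

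Ogt lies on the X chromosome, the chromosome that carries the induced Xist. The share of Ogt on 129S was 47.5% without Dox and 35.1% with Dox in WT. In clones C1, 2C2 and C11 it was 49.0%, 49.8% and 50.8% without Dox and 50.6%, 49.5% and 48.1% with Dox. Replicates 1 and 2 of T1_11C had Ogt at 48.7% and 48.1% without Dox and at 40.4% and 42.6% with Dox. The allelic share of Ogt was thus lower with Dox in WT and T1_11C, and it stayed between 48.1% and 50.8% in XistDelA.

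Over 5 lines 0 of the 52 were called for Dox (6 at an unadjusted p below 0.05), and 0 were called in T1_11C, where 51 were tested, or for the interaction (0 in each at an unadjusted p below 0.05). Dnmt3b, the other main de novo methyltransferase, is among the co-factors and was singled out after its values were seen. With T1_11C paired by number, its RPM was higher with Dox in 6 of 6 pairs. This count rests on the pairing, since T1_11C replicate 1 without Dox (157 RPM) lay above replicate 2 with Dox (104 RPM). The log2 change of Dnmt3b was 0.12 in XistDelA (adjusted p 0.0788) and 0.25 over 5 lines (0.526), and neither passed. Over 5 lines it passed without T1_11C (0.15, adjusted p 0.0328) and with a replicate block that pairs T1_11C by number (0.24, 0.0118), within a range of 0.0118 to 0.996 over all alternatives. In these fits 21 and 11 of the 52 were called, or 40.4% and 21.2%, beside 26.4% and 16.4% of all genes. DESeq2 over 5 lines called 1, Zbtb33, or 1.92% beside 3.92%. The pairing also gave 1 call for the interaction, Ung (0.65, adjusted p 0.0403, range 0.0403 to 1).

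Among lines 17 of the 52 differed, or 32.7% beside 35.2% of all genes. Those with the smallest p were Zbtb4, a reader of methylated DNA, with a span of 2.07 (adjusted p 3.32e-04), Trim28, a co-repressor that guards methylation at imprinted loci, with 0.92 (0.00124), and the glycosylase Tdg with 2.64 (0.00198). Trim28 lay at 172 to 282 RPM in T1_11C and at 305 to 422 RPM in the other libraries, without overlap. Tdg had only 2 to 17 counts in a library, since 98.9% of its span is overlapped on the same strand by Gm9855. All 3 rest on T1_11C, which lay at 1.43 for Zbtb4, -0.67 for Trim28 and -1.89 for Tdg relative to the mean of the lines. Without T1_11C 20 of the 52 were called, or 38.5% beside 32.4% of all genes, and none of these 3. Their spans were then 0.69 (adjusted p 0.167), 0.23 (0.112) and 0.79 (0.317), and over all alternatives the adjusted p ran from 4.60e-17 to 0.167 for Zbtb4, from 3.19e-12 to 0.112 for Trim28 and from 0.00192 to 0.317 for Tdg. Leaving out the other lines gave 12 of 52 without WT (23.1% beside 31.3% of all genes) and 15 without C1 (28.8% beside 31%). It gave 14 without 2C2 (26.9% beside 29.5%) and 13 without C11 (25% beside 27.9%).

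The parental ratio was away from 1 in 36 of 46 tested, 22 higher on 129S and 14 lower, or 78.3% beside 75.7% of all genes, where 47.4% of all were higher and 28.3% lower. X-linked Ogt is among the 14. Named by smallest p were Mat2b (0.97), Zbtb38 (1.36) and Mat2a (0.54) higher on 129S and Polb (-1.14), Cdca7l (-1.43) and Neil3 (-0.83) lower. It differed among lines in 6 of 46, beside 15.8% of all genes, with Mat2b, Mat2a and Dppa3 named by smallest p. Mat2a rested on WT, with a span of 0.60 that became 0.16 without it (adjusted p 0.386, range over all alternatives 8.43e-06 to 0.386). Dppa3 rested on C11, with a span of 1.53 that became 0.38 without it (adjusted p 0.884, range 0.00306 to 0.884). With Dox the ratio changed in 0 of 46 by edgeR (4 at an unadjusted p below 0.05). Ogt had a log2 difference of -0.27 (adjusted p 0.143), and it was called without C1 and with the replicate block that pairs T1_11C by number.

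The genes whose level was most like that of each member over the 12 libraries were found by Pearson's r of normalised log2 levels, given as a description since 4 of the 12 points are T1_11C libraries and the 12 libraries come from only 5 lines. For Dnmt1 they were Timeless (r 0.934) and Pde1b (0.932), and for Uhrf1 Smg5 (0.962) and Mcm2 (0.961). Dnmt3a was most like Sall2 (0.967) and Mllt1 (0.945), and Dnmt3l most like Tcof1 (0.970) and Ctsf (0.965). Tet1 was most like Prpf38a (0.991) and Pop1 (0.990), Tet2 most like Cfhr2 (0.954) and Dut (0.952), and Tet3 most like Gprasp1 (0.947) and Bivm (0.942). Among the members themselves the highest values were those of Uhrf1 with Tet2 (0.843), Uhrf1 with Dnmt1 (0.841) and Tet1 with Tet2 (0.840), while the lowest were those of Dnmt3a with Tet2 (-0.125) and Tet3 with Dnmt1 (0.0156).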

How the data were processed

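ChrRNA-seq was analysed in 12 libraries. The authors aligned reads (Bowtie2 2.3.2 and STAR 2.4.2a) and counted read pairs by strand over gene spans of mm10, introns included, with featureCounts 1.5.2. They deposited unnormalized counts for all read pairs and for each parental genome. The parental column with nearly all Xist counts was taken as 129S. Depth ran from 18893447 to 36007145 counts. Levels are RPM with Wilson 95% intervals (scipy 1.17.1). Tests used edgeR 4.0.16 quasi-likelihood fits (TMM, filterByExpr with a minimum count of 10, Benjamini-Hochberg over all genes tested, threshold 0.05) with limma 3.58.1 in R 4.3.3. The allelic fit took genes with at least 10 allelic counts in every library. Tables and figures used Python 3.11.15, pandas 2.3.3, numpy 2.4.6 and matplotlib 3.10.9. The tests were tested on simulated data.

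Libraries of a clone were paired by the clone name in the labels. As deviations from the mean of XistDelA in their Dox state, the libraries of 1 clone correlated over 15826 genes with r of 0.63 for C1, 0.40 for 2C2 and 0.56 for C11. T1_11C replicates share only a number, which is not said to pair them, and were left unpaired. Their r was 0.71 for both pairs, which with 2 replicates is the same by construction, so this does not show that the numbers pair them. Alternatives were DESeq2 1.42.0, its size factors in edgeR, no count filter, TMM from autosomal genes, other blocks, at least 50 allelic counts and leaving out each line, clone or library. The members and the lists were chosen with earlier results of these data known. All members were named, and from the pathway list up to 3 genes per direction with the smallest p among those called. For likeness, the 2 genes with the highest r were named. Promoters came from RefSeq (GRCm38.p6). No test against WT alone was made, since it has 1 library per state, and X-linked silencing was left out except for the share of Ogt.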

Additional observations from a re-analysis of the deposited data

Results flagged for a closer look

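A gene was singled out here when all 3 XistDelA clones moved one way with Dox and both T1_11C replicates, paired by number, moved the other way. The difference in log2 Dox effect, T1_11C minus XistDelA, came from the interaction term of edgeR and did not pass for any of them (adjusted p 1 each). Among the members it was 0.36 for Tet1 (p 0.128), which was lower with Dox in the clones and higher in T1_11C, and -0.40 for Tet3 (p 0.118), which was higher in the clones and lower in T1_11C. In the pathway list it was -0.43 for Neil3 (p 0.247), -0.38 for Ogt (p 0.0822) and 0.65 for Ung (p 0.0719). With a replicate block that pairs T1_11C by number, Ung passed (adjusted p 0.0403, range over all alternatives 0.0403 to 1). Ogt lies on the X chromosome, which carries the induced Xist. Its share of allelic counts on 129S went from 48.7% to 40.4% with Dox in T1_11C replicate 1 and from 48.1% to 42.6% in replicate 2, and was 48.1% to 50.8% in the 6 XistDelA libraries. What part this has in the difference was not tested.

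The parental share of Tet3 met the same condition. Its share on 129S was higher with Dox by 0.795, 1.14 and 2.92 percentage points in clones C1, 2C2 and C11, and it changed by -7.35 and -3.78 percentage points in the T1_11C replicates. The mean change in T1_11C minus that in XistDelA was -7.19 percentage points, on 205 to 564 allelic counts a library, and this difference was not tested.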

How the results depend on the processing

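Counts of genes called among lines and for both parental ratios stayed within 1.5 times under every alternative run, and no call of a member reversed. Of the tests of members under alternatives 406 kept their direction and call, 10 passed the threshold newly, 13 lost it and 19 changed direction without a call before or after. The 7 levels of members with TMM library sizes stayed within 1.5 times. DESeq2 called 621 genes for Dox over 5 lines, 2643 in XistDelA, 3 in T1_11C and 4 for the interaction. Without a replicate block the counts were 4 over 5 lines and 3 in XistDelA. With a replicate block that pairs T1_11C by number they were 2588 over 5 lines (Dnmt3l with -0.23, adjusted p 0.0296), 237 in T1_11C, 117 for the interaction and 174 for the allelic change with Dox (Tet1 with 0.07, adjusted p 0.0384). Without a count filter 2 genes were called in T1_11C, and with at least 50 allelic counts 12 for the allelic change. Leaving out a line, clone or library gave 3 to 4037 genes over 5 lines, 2152 to 4996 in XistDelA, 4 to 14 in T1_11C and 6 to 86 for the allelic change. Direction changed among uncalled members as follows, given as the range over the line, clone or library left out. Over 5 lines Dox gave Dnmt3a -0.026 to 0.054, Tet2 -0.13 to 0.0069 and Tet3 -0.10 to 0.068, and in XistDelA Dnmt3a -0.11 to 0.0094. In T1_11C the ranges were -0.91 to 0.32 for Dnmt3l, -0.10 to 0.19 for Dnmt1, -0.47 to 0.53 for Dnmt3a, -0.047 to 0.36 for Uhrf1 and -0.046 to 0.25 for Tet2. For the interaction Dnmt3l ran from -0.060 to 0.075 and was -0.052 with T1_11C paired by number in a replicate block. The allelic change with Dox ran from -0.12 to 0.017 for Dnmt3a, from -0.0010 to 0.082 for Uhrf1, from -0.040 to 0.0086 for Tet2 and from -0.086 to 0.084 for Tet3. The parental ratio of Tet2 ran from -0.053 to 0.0037, and it was called at the lower end. Named genes of the pathway list were run under the same alternatives, which was decided after the data were seen. Of these tests 156 kept their direction and call, 3 passed the threshold newly, 13 lost it and none changed direction. A library left alone in its state was assumed to vary like the others. The cause was not tested for any of these. Depth limits Tet3 and the shares of Dnmt3a, Dnmt3l and Tet3 most, with 205 to 1392 allelic counts a library.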
